A study of Mus musculus with 9 samples.

Results

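The 44 genes described here make up an interferon module: 4 receptor chains, 2 kinases, 6 STAT and IRF transcription factors, 3 sensors of viral RNA and 29 further genes, most of which cells switch on after interferon. They were taken by symbol from the 30411 genes of the deposited table of FPKM (fragments per kilobase of transcript and per sequenced library, so that genes of different length can be compared), and all 44 symbols were found there, each once. The RNA, selected for poly(A) tails, came from cultures of HEI-OC1, a mouse line immortalised from the organ of Corti, where the cochlea turns sound into nerve signals. There were 3 groups with 3 libraries each. The control group was left untreated, the H2O2 group received hydrogen peroxide as an oxidant, and the pretreated H2O2 group was incubated with a nanoreactor carrying selenium and then given hydrogen peroxide. All 3 groups are the same line, and the labels give no genetic difference between them. The nanoreactor appears under 3 spellings in the labels (SCGS, HCS@Se and HSC@Se), which were taken as 1 agent. Doses and times are not given in the labels, and there was no group with the nanoreactor alone, so its own effect and its effect on the response to H2O2 cannot be told apart. The labels call the replicates biosamples without saying that they are separate cultures, so the p-values measure the spread between these libraries, which may be technical.

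Interferons are secreted signal proteins. Type I interferons bind the receptor chains IFNAR1 and IFNAR2 and interferon gamma binds IFNGR1 and IFNGR2. Kinases of the JAK family attached to these chains (JAK1 and TYK2 for type I, JAK1 and JAK2 for gamma) phosphorylate STAT proteins. Complexes with STAT2 and IRF9 bind the interferon-stimulated response element (ISRE), while the response to interferon gamma acts through the gamma-activated site (GAS), and the genes carrying these elements include most of those below. HEI-OC1 was made from a mouse whose immortalising transgene, a temperature-sensitive SV40 large T antigen, is driven by an interferon-inducible MHC class I promoter, and the labels do not say whether interferon was present in the medium.

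Libraries held 55395418 to 67215208 deposited counts. A count was seen for 20102 to 20741 genes in control libraries, 20502 to 20920 in H2O2 libraries and 24043 to 24141 in pretreated H2O2 libraries. As a check of the labelled line, the hair cell markers Atoh1 and Slc26a5 and the supporting cell markers Sox2 and Prox1 had no count in any library. Of the 10 listed hair cell markers 8 had a count, and more than 12 counts in the group were held by 4 (control), 3 (H2O2) and 6 (pretreated H2O2). The list summed to 1.31 to 2.02 FPKM over the 9 libraries. Of the 8 supporting cell markers 6 had a count, and 4 held more than 12 counts in each group. The 8 supporting cell markers stepped down by group, from 8.05 to 8.18 FPKM (control) through 5.38 to 5.96 (H2O2) to 3.44 to 3.73 (pretreated H2O2). Only the second of these steps has the direction of most members, and the part of these markers in the results was not tested. The 8 fibroblast and mesenchyme markers summed to 1210 to 1220 FPKM (control), 1180 to 1190 (H2O2) and 1020 to 1030 (pretreated H2O2). Of 11 macrophage and leukocyte markers, Ptprc, Adgre1, Tyrobp and Cd3e had no count in any library and 7 had a count. More than 12 counts in the group were held by 4 (control), 5 (H2O2) and 6 (pretreated H2O2). The list summed to 7.44 to 8.47 FPKM in control, 9.03 to 11.4 in H2O2 and 8.16 to 8.58 in pretreated H2O2. In a bulk sample, fewer cells of a kind and less RNA per cell cannot be told apart.

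Promoter sequences of the members were searched for the ISRE and the GAS. The members were listed as interferon genes, so the shares below are not independent of that choice. RefSeq windows on GRCm38.p6, from 250 bases before to 50 bases after an annotated start, were at hand for 37 of the 44 members, some with more than 1 start. The core of the ISRE, searched as GAAANNGAA on both strands, lay in a window of 18 of 37 members (48.6%), against 2638 of 27025 genes (9.76%). The GAS, searched as TTCNNNGAA, which reads the same on both strands, lay in 12 of 37 members (32.4%), against 2582 genes (9.55%). Of 31 ISRE core matches in the members, 2 shared bases with a GAS match, and cores could overlap each other in tandem. A match is a description of letters and no evidence of binding. Between H2O2 and pretreated H2O2, Ifit2, Cmpk2, Oasl2 and Irf3 fell with no ISRE core in their windows. Adar rose with 2 in a window. The following stretches were picked from windows that held a match, among members described below. They are upstream parts of the promoters, written along the gene's own strand. In the first 6, capitals mark the ISRE core or its reverse complement, which starts with TTC. In the last, capitals mark the GAS.
Ifit1, chr19:34640760-34640808, plus strand: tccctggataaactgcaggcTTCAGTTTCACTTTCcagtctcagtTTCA
Ifit3, chr19:34583354-34583402, plus strand: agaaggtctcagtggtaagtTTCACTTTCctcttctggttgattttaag
Rsad2, chr12:26456543-26456591, minus strand: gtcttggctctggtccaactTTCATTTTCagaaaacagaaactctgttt
Gbp7, chr3:142530264-142530312, plus strand: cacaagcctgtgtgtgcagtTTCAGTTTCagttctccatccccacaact
Isg15, chr4:156200868-156200916, minus strand: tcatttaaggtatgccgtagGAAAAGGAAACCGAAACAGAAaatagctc
Stat2, chr10:128270257-128270305, plus strand: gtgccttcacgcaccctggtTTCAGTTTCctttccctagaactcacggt
Irf1, chr11:53769904-53769952, plus strand: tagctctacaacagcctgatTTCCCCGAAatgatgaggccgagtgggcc
Counted from the start as base 1, with no base 0, the first core began at -109 in Ifit1, at -155 in Ifit3, at -119 in Rsad2, at -52 in Gbp7, at -78 in Isg15 and at -221 in Stat2, and the GAS of Irf1 at -90. In Ifit1 and Isg15 neighbouring cores overlapped, so that the capitals run on, and the capitals at the end of the Ifit1 stretch open a further match. The ISRE core was in the windows of 14 of 28 members that were lower in pretreated H2O2 than in H2O2, of 1 of 4 that were higher and of 2 of 4 that were not called.

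Levels of different members can be compared per length, in FPKM. In control cells the most abundant members were Ifitm2 at 87.0 FPKM, Ifitm3 at 81.9 FPKM, Isg15 at 60.8 FPKM and Gbp2 at 50.3 FPKM, and the order of Ifitm2 and Ifitm3 is not firm, since control libraries of Ifitm2 differed widely. Irf1 ranked 7 among the members in control with a mean of 26.8 FPKM and 16 in pretreated H2O2 with 6.38 FPKM. At the other end Mx1 and Trim25 were listed at 0 in every control library and Usp18 was at 0.109 FPKM. In the rest of the text, levels of a gene are CPM (counts per 1000000 of the library total, scaled by TMM to make libraries comparable) with mean ± SD over 3 libraries, and differences are log2 fold changes from edgeR with their standard error (SE). A gene was called when its Benjamini-Hochberg adjusted p, over the 18092 genes tested by edgeR's quasi-likelihood test, was under 0.05, with no minimum fold. Of the 44 members 42 passed the filter on low counts and were tested, and 37 averaged 1 CPM or more over all libraries.

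**Figure D1:**
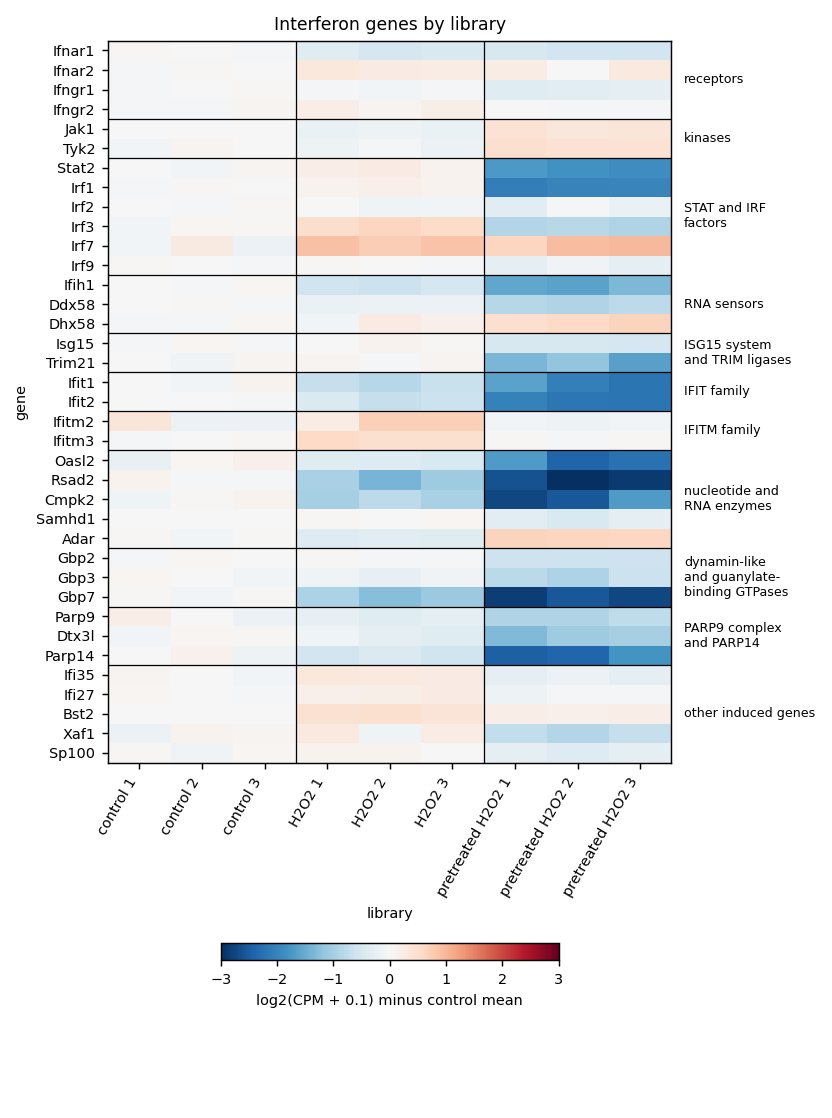
Level of the 37 interferon genes averaging 1 CPM or more, in each of 9 libraries, as log2(CPM + 0.1) minus the mean of the 3 control libraries, with genes grouped by role. The pretreated H2O2 columns are blue for most genes, with Jak1, Tyk2, Irf7, Dhx58 and Adar in red, while the H2O2 columns hold both colours. Bst2 and Ifnar2 were also called slightly higher in pretreated H2O2 than in control (log2 fold change 0.18 each).

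Comparing H2O2 with control asks what the oxidant did to the module. Members moved in both directions: 10 of 42 (23.8%) were higher and 12 (28.6%) lower, where 24.6% of all tested genes were called higher and 24.1% lower, so the members' shares lie near those of genes at large. The median log2 fold change of the members was -0.01, beside 0.02 over all genes. The comparison of pretreated H2O2 with H2O2 asks what the nanoreactor changed in cells given the oxidant. There 31 of 42 members (73.8%) were lower and 5 (11.9%) higher, against 31.3% lower and 32.4% higher among all tested genes. Of the 42, 12 (28.6%) were lower by at least 2-fold, against 4.66% of all genes, and the median log2 fold change of the members was -0.55 beside 0.02 over all genes. The split over all genes depends on the method together with the filter. By edgeR 5856 were called higher and 5655 lower. Limma on log2(FPKM + 1) called 6513 higher and 5724 lower without a filter. Limited to genes whose mean FPKM reached 1, limma called 3250 and 5378. The medians of that limited run were -0.12 for all genes and -0.48 for the 31 members it tested. Pretreated H2O2 against control gave 27 members lower (64.3%) and 9 higher (21.4%), against 29.5% and 33.7% of all genes, and 13 members (31.0%) lower by at least 2-fold against 7.22% of all genes. Both counts of higher members, 5 and 9, include Ifitm1. That gene passed the filter on low counts only through the pretreated group, so its calls are no independent result. The 3 comparisons share libraries, so their values are set side by side and are not independent. Among the 37 members with at least 1 CPM, 30 (81.1%) were lower and 4 (10.8%) higher in pretreated H2O2 than in H2O2. Their median was -0.55 beside -0.10 for all genes at that level. A separate fit limited to the 12886 genes at that level called 4728 lower and 4731 higher.

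**Figure D2:**
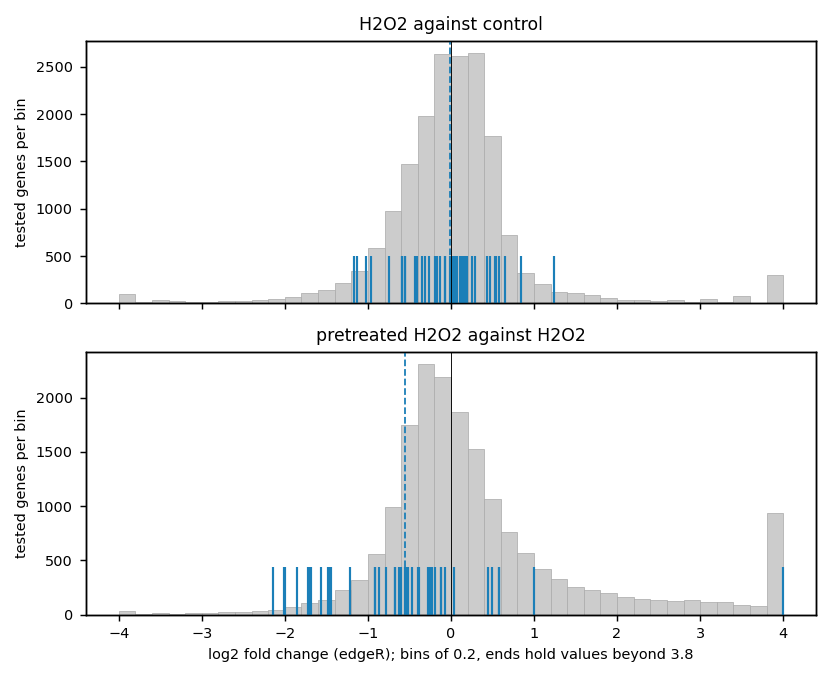
Log2 fold changes of all 18092 tested genes in bins of 0.2 (grey) with the 42 tested interferon genes as ticks and their median as a dashed line. The upper panel is H2O2 against control and the lower is pretreated H2O2 against H2O2; the members' median is close to 0 in the upper panel and at -0.55 in the lower.

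The receptor chains changed little, and not together. Ifnar1 (chromosome 16, 91485238 to 91507441 on GRCm38, the build of all positions here) encodes a chain of the type I receptor. It was at 89.9, 87.8 and 85.0 CPM in control, 68.2, 62.0 and 64.1 in H2O2, with 62.8, 58.3 and 58.4 in pretreated H2O2. Both treated groups lay below every control library, and they overlapped each other. Ifnar1 fell 1.35-fold with H2O2 (log2 fold change -0.44, SE 0.043, adjusted p = 2.69e-06). Between pretreated H2O2 and H2O2 its log2 fold change was -0.11 (SE 0.044, adjusted p = 0.037), a call kept in 9 of 18 alternatives. It was -0.065 and not called with length and GC offsets (terms fitted for transcript length and GC content in each library), and it ended without H2O2 replicate 1 (-0.08), without H2O2 replicate 3 (-0.13) and without pretreated replicate 2 or 3 (-0.10 and -0.09). Ifnar2, its partner chain, was at 30.0, 31.6 and 30.9 CPM in control, 38.2, 36.3 and 35.9 in H2O2, with 35.7, 31.2 and 37.9 in pretreated H2O2. H2O2 libraries were above all control libraries, and the third group overlapped both. The rise of Ifnar2 with H2O2 was 1.19-fold (log2 fold change 0.26, SE 0.067, adjusted p = 0.00657), and it was not called with length and GC offsets (0.15). Its difference between pretreated H2O2 and control (0.18, adjusted p = 0.0317) rested on overlapping libraries, was kept in 7 of 18 alternatives and was lost without control replicate 1 or 3 (0.16 and 0.18) and without pretreated replicate 1 or 3 (0.17 and 0.12).

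For interferon gamma, Ifngr1 encodes the chain that binds the ligand and Ifngr2 the chain that completes the receptor. Ifngr1 was at 44.7, 44.9 and 46.8 CPM in control, 43.3, 43.1 and 43.9 in H2O2, with 35.2, 36.0 and 37.2 in pretreated H2O2. All pretreated libraries lay below all others, and the fall against H2O2 had a log2 fold change of -0.27 (SE 0.042, adjusted p = 0.000121), or -0.15 with length and GC offsets. Ifngr2 was at 36.3, 36.4 and 39.6 CPM in control, 42.9, 39.9 and 42.1 in H2O2, with 36.8, 36.5 and 35.8 in pretreated H2O2. H2O2 libraries were the highest, without overlap, and pretreated and control libraries overlapped. Ifngr2 fell between H2O2 and pretreated H2O2 (-0.20, SE 0.05, adjusted p = 0.0041), while the rise with H2O2 (0.15, SE 0.05, adjusted p = 0.0209) was not called without control replicate 1 or 2 (0.13 each) or without H2O2 replicate 1 or 3 (0.13 and 0.15). With all genes under a mean of 1 CPM removed, the fall of Ifngr2 was not called (-0.11), and with length and GC offsets it was -0.31.

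Both kinases were higher after pretreatment, against the direction of most members. Jak1 (chromosome 4, 101152367 to 101265282) encodes the kinase shared by both receptor types. Its level was 201, 203 and 200 CPM in control, 174, 180 and 174 in H2O2, with 274, 253 and 261 in pretreated H2O2. The groups did not overlap, with H2O2 lowest and pretreated H2O2 highest. Jak1 fell with H2O2 (log2 fold change -0.20, SE 0.029, adjusted p = 8.99e-05; -0.35 with length and GC offsets) and was 1.49-fold higher in pretreated H2O2 than in H2O2 (0.58, SE 0.029, adjusted p = 3.03e-09). Tyk2 (chromosome 9, 21104068 to 21131243), the kinase bound to IFNAR1, was at 11.9, 13.3 and 12.7 CPM in control, 11.3, 12.1 and 11.2 in H2O2, with 17.7, 17.1 and 17 in pretreated H2O2. Control and H2O2 overlapped, and all pretreated libraries stood above both. The rise of Tyk2 against H2O2 was 1.5-fold (0.58, SE 0.078, adjusted p = 3.05e-05), and 0.27 with length and GC offsets. Under these offsets Tyk2 was also higher in H2O2 than in control (0.22), where the main value was -0.13 and not called.

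Among the transcription factors, Irf1, Stat2 and Irf3 fell most with pretreatment. Irf1 (chromosome 11, 53770014 to 53777323) is itself induced by interferon gamma and activates interferon-stimulated genes; its promoter stretch with the GAS is printed above. It was at 110, 117 and 115 CPM in control, 123, 127 and 122 in H2O2, with 27.0, 28.3 and 29.0 in pretreated H2O2. The pretreated libraries were far below all others. Irf1 fell 4.41-fold from H2O2 to pretreated H2O2 (log2 fold change -2.14, SE 0.037, adjusted p = 2.68e-13) and 4.07-fold against control (-2.03, SE 0.037, adjusted p = 3.49e-13). Its small rise with H2O2 (0.12, SE 0.034, adjusted p = 0.0144) was not called without control replicate 1 (0.09) or H2O2 replicate 2 (0.10), nor with length and GC offsets (-0.03). Gm17334 overlaps Irf1 on the other strand, with 1728 counts in all beside 50029 for Irf1.

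Stat2 (chromosome 10, 128270559 to 128292849) encodes the STAT that acts with IRF9 after type I interferon. Its libraries read 25.7, 24.2 and 27.2 CPM in control, 29.6, 30.4 and 27.5 in H2O2, with 7.67, 7.27 and 6.95 in pretreated H2O2. Control and H2O2 lay next to each other, and pretreated H2O2 lay well below. Stat2 was 3.99-fold lower in pretreated H2O2 than in H2O2 (-2.00, SE 0.076, adjusted p = 2.72e-10) and 3.52-fold lower than in control (-1.82, SE 0.076, adjusted p = 6.14e-10). H2O2 against control gave 0.18 (SE 0.073, adjusted p = 0.0554), which was called in 6 of the alternative settings. Irf3 (chromosome 7, 44997648 to 45002848), the factor through which RNA and DNA sensors switch on interferon beta, moved in opposite directions in the first 2 comparisons. It was at 26.4, 28.8 and 28.3 CPM in control, 40.1, 43.5 and 40.5 in H2O2, with 15.1, 15.7 and 14.8 in pretreated H2O2. No groups overlapped, H2O2 being highest and pretreated H2O2 lowest. Irf3 rose 1.49-fold with H2O2 (0.57, SE 0.058, adjusted p = 3.31e-06) and was 2.72-fold lower in pretreated H2O2 than in H2O2 (-1.44, SE 0.06, adjusted p = 5.85e-10), and 1.83-fold lower than in control (-0.87, SE 0.06, adjusted p = 6.11e-08). The gene overlaps Bcl2l12 on the other strand (5919 counts in all beside 15948), and whether the authors counted by strand is not given in the sources used here.

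Irf7, Irf9 and Irf2 moved less. Irf7 (chromosome 7, 141262706 to 141266481), a factor that amplifies interferon alpha production, was at 1.83, 2.34 and 1.70 CPM in control, 3.65, 3.29 and 3.57 in H2O2, with 3.11, 3.79 and 3.89 in pretreated H2O2. Both treated groups were above control and overlapped each other. The rise of Irf7 with H2O2 was 1.79-fold (0.84, SE 0.17, adjusted p = 0.00114), and pretreated H2O2 against H2O2 gave 0.04 (adjusted p = 0.853). Irf7 shares bases with Phrf1 on the other strand, which had 50187 counts in all against 1713 for Irf7, so its values are uncertain. Irf9, the DNA-binding partner of STAT2, was at 15.8, 15.6 and 15.0 CPM in control, 15.9, 15.7 and 15.0 in H2O2, with 12.7, 14.3 and 12.9 in pretreated H2O2. Pretreated libraries were the lowest, close beneath the others. The fall of Irf9 against H2O2 (-0.22, SE 0.077, adjusted p = 0.0216) was kept in 11 of 18 alternatives and not called without H2O2 replicate 1 (-0.21) or without pretreated replicate 1 or 3 (-0.19 and -0.20), and the gene overlaps Rnf31 on the same strand (8768 counts beside 8357). Irf2, which can repress as well as activate, was at 24.3, 23.3 and 24.8 CPM in control, 24.1, 22.0 and 22.9 in H2O2, with 19.4, 23.0 and 21.1 in pretreated H2O2. H2O2 libraries overlapped both other groups, and all pretreated libraries lay below all control libraries. Irf2 was not called between the treated groups (-0.12, adjusted p = 0.176). Against control, the call of Irf2 (-0.19, adjusted p = 0.0399) was lost without control replicate 1 or 3 and without pretreated replicate 1 or 3 (-0.19, -0.18, -0.13 and -0.19), and kept in 9 of 18 alternatives in all. That of Irf9 (-0.22, adjusted p = 0.0241) was kept in 12 of 18, and was lost without control replicate 1 or 2 and without pretreated replicate 1 or 3 (-0.21, -0.22, -0.19 and -0.20).

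**Figure D3:**
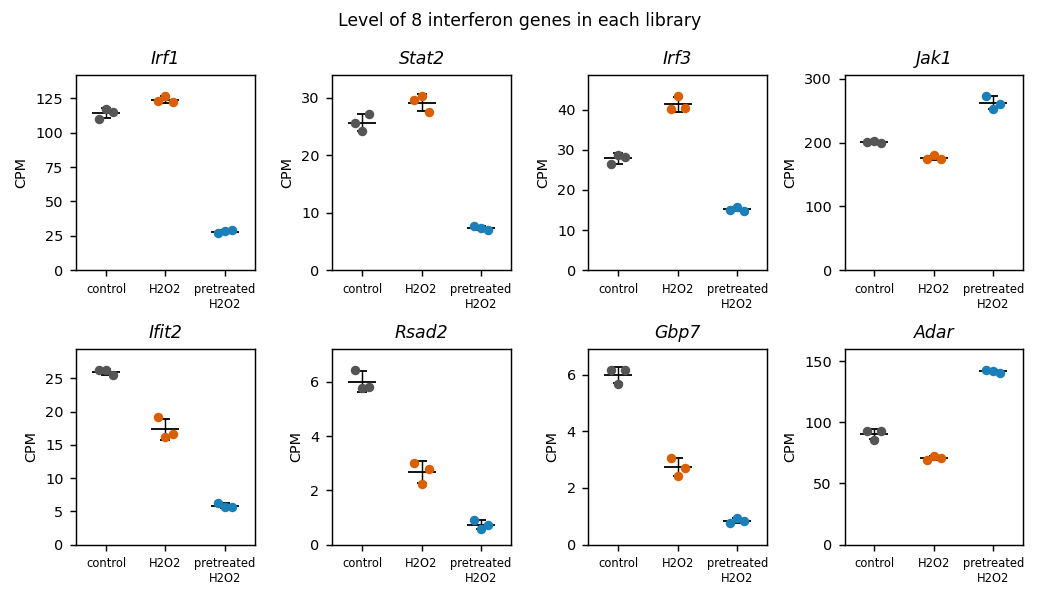
CPM of 8 interferon genes in each of the 9 libraries, as points, with the mean and SD of each group of 3 as bars, on axes that start at 0. Irf1, Stat2 and Irf3 are lowest in pretreated H2O2, Ifit2, Rsad2 and Gbp7 step down from control through H2O2 to pretreated H2O2, and Jak1 and Adar are highest in pretreated H2O2.

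The cytosolic RNA sensors split. Ifih1 (chromosome 2, 62595798 to 62646211) encodes MDA5, a helicase that detects long double-stranded RNA. It was at 27.1, 26.2 and 28.3 CPM in control, 17.8, 17.4 and 18.9 in H2O2, with 9.12, 8.91 and 10.6 in pretreated H2O2. The groups formed 3 separate steps downwards. Ifih1 fell 1.51-fold with H2O2 (-0.59, SE 0.079, adjusted p = 3.83e-05), a value of -0.35 with length and GC offsets, and a further 1.89-fold in pretreated H2O2 against H2O2 (-0.92, SE 0.082, adjusted p = 6.96e-07). Ddx58, which encodes RIG-I, the sensor of short RNA with a triphosphate end, went from 62.5 ± 1.89 CPM in control to 55.2 ± 0.675 in H2O2 and 34.8 ± 1.32 in pretreated H2O2 (-0.67 between the treated groups, SE 0.041, adjusted p = 2.31e-08). Dhx58, which encodes LGP2, a helicase of the same family without the signalling domain, was at 4.06 ± 0.154 CPM in control, 4.37 ± 0.508 in H2O2 and 6.19 ± 0.35 in pretreated H2O2. It rose in pretreated H2O2 against H2O2 (0.50, SE 0.126, adjusted p = 0.00384), opposite to the other sensors.

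The IFIT proteins bind foreign RNA and block its translation, and their genes stand together on chromosome 19 within 99.3 kb. Ifit2 was at 26.3, 26.3 and 25.5 CPM in control, 19.2, 16.2 and 16.6 in H2O2, with 6.27, 5.70 and 5.64 in pretreated H2O2. Each group lay wholly below the one before. Ifit2 fell 1.5-fold with H2O2 (-0.59, SE 0.083, adjusted p = 6.42e-05) and 2.95-fold between H2O2 and pretreated H2O2 (-1.56, SE 0.088, adjusted p = 9.58e-09). The fall with H2O2 was -0.42 with length and GC offsets. Ifit1, with the tandem ISRE cores shown above, was at 14.2, 13.5 and 15.6 CPM in control, 8.84, 7.97 and 9.08 in H2O2, with 4.67, 3.42 and 3.06 in pretreated H2O2. The same 3 steps were seen without overlap. The first was 1.67-fold (-0.74, SE 0.14, adjusted p = 0.000651) and the second 2.32-fold (-1.21, SE 0.146, adjusted p = 1.1e-05). With length and GC offsets the first was -0.51. Ifit3 was low throughout, at 0.637, 1.04 and 1.36 CPM in control, 1.49, 1.35 and 1.37 in H2O2, with 0.229, 0.557 and 0.254 in pretreated H2O2. Only the pretreated group stood apart, and Ifit3 was 4.04-fold lower there than in H2O2 (-2.01, SE 0.39, adjusted p = 0.000618); the near-identical copy Ifit3b makes its count uncertain, and over the alternatives this value ran from -2.53 to -0.57.

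The IFITM proteins sit in membranes and hinder virus entry. With H2O2, Ifitm2 and Ifitm3 did not follow Ifit1 and Ifit2, but both fell from H2O2 to pretreated H2O2, as the IFIT genes did. Ifitm3 (chromosome 7, 141009586 to 141010770) was at 57.6, 59.6 and 61.3 CPM in control, 90.7, 83.4 and 83.6 in H2O2, with 60.5, 58.5 and 61.3 in pretreated H2O2. H2O2 libraries were above all others, and pretreated and control libraries overlapped. Ifitm3 rose 1.44-fold with H2O2 (0.53, SE 0.041, adjusted p = 2.45e-07) and was 1.43-fold lower in pretreated H2O2 than in H2O2 (-0.52, SE 0.041, adjusted p = 2.33e-07). Ifitm2 was at 76.8, 53.4 and 52.9 CPM in control, 69.6, 99.4 and 98.3 in H2O2, with 56.8, 54.2 and 56.8 in pretreated H2O2. The first library of control and the first of H2O2 crossed, so these groups overlapped, although the rise was called (0.55, SE 0.145, adjusted p = 0.00717), and the fall from H2O2 to pretreated H2O2 was -0.67 (SE 0.145, adjusted p = 0.00136). Ifitm2 shares bases with Gm45717 on the same strand, which had 9170 counts in all beside 39094 for Ifitm2. Ifitm1 had 4, 4 and 0 deposited counts in control, 0, 4 and 0 in H2O2, with 102, 106 and 142 in pretreated H2O2, the last being 1.56, 1.69 and 2.25 CPM. It was called higher (adjusted p = 2.27e-05 against H2O2), and no fold is given because the other groups held no more than 12 counts in all. Ifitm1 passed the filter only through the pretreated group, in which 24043 to 24141 genes had a count against at most 20920 elsewhere, and the part of that difference in this result was not tested.

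Of 6 enzymes acting on nucleotides and RNA, 4 fell in pretreated H2O2 against H2O2, where 31.3% of all tested genes were called lower. Rsad2 (chromosome 12, 26442746 to 26456452) encodes viperin, which makes a chain-terminating nucleotide, and lies next to Cmpk2, a nucleotide kinase of mitochondria, within 37.1 kb. Rsad2 was at 6.45, 5.77 and 5.80 CPM in control, 3.00, 2.22 and 2.79 in H2O2, with 0.900, 0.573 and 0.730 in pretreated H2O2. The groups descended without overlap. Rsad2 fell 2.25-fold with H2O2 (-1.17, SE 0.179, adjusted p = 0.000121), 3.63-fold from H2O2 to pretreated H2O2 (-1.86, SE 0.197, adjusted p = 3.53e-06) and 8.15-fold from control to pretreated H2O2 (-3.03, SE 0.198, adjusted p = 3.85e-08). With length and GC offsets its fall with H2O2 was smaller, at -0.84. Cmpk2 was at 2.91, 3.25 and 3.42 CPM in control, 1.54, 1.81 and 1.58 in H2O2, with 0.397, 0.462 and 0.905 in pretreated H2O2. It descended in the same order as its neighbour. The fall of Cmpk2 was 1.94-fold with H2O2 (-0.96, SE 0.262, adjusted p = 0.00857) and 2.8-fold between the treated groups (-1.48, SE 0.282, adjusted p = 0.000537). Oasl2, a relative of the oligoadenylate synthetases, was at 8.51, 10.3 and 11.0 CPM in control, 7.71, 7.50 and 7.18 in H2O2, with 2.97, 1.80 and 2.02 in pretreated H2O2. Pretreated libraries lay far below both other groups, a 3.29-fold fall against H2O2 (-1.72, SE 0.176, adjusted p = 2.62e-06), while H2O2 against control was not called (-0.41, adjusted p = 0.0566) except in 8 of the alternatives.

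Adar (chromosome 3, 89715022 to 89753446), which encodes an enzyme that edits adenosine to inosine in double-stranded RNA, went the other way. It was at 93.1, 85.3 and 93.0 CPM in control, 69.4, 72.2 and 70.7 in H2O2, with 143, 142 and 140 in pretreated H2O2. H2O2 libraries were lowest and pretreated libraries highest, with no overlap. Adar fell 1.28-fold with H2O2 (-0.35, SE 0.035, adjusted p = 2.65e-06) and was 2-fold higher in pretreated H2O2 than in H2O2 (1.00, SE 0.035, adjusted p = 1.21e-10), and 1.56-fold higher than in control (0.65, adjusted p = 6.14e-09). Samhd1, which breaks down deoxynucleotides, went from 195 ± 1.93 CPM in H2O2 to 150 ± 9.08 in pretreated H2O2 (-0.38, SE 0.036, adjusted p = 1.23e-06). Oas1a, a synthetase that activates RNase L, was at 15 to 67 deposited counts a library with no call (1.24 for H2O2 against control, adjusted p = 0.0533, called in 6 of 15 alternatives), and its near-identical copy Oas1g makes it uncertain.

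The guanylate-binding proteins, GTPases that attack the compartments of intracellular microbes, fell as a trio with unequal size. Their genes lie on chromosome 3 within 107.7 kb. Gbp7 (142530342 to 142550149) was at 6.16, 5.68 and 6.18 CPM in control, 3.07, 2.43 and 2.70 in H2O2, with 0.763, 0.939 and 0.825 in pretreated H2O2. No libraries overlapped between groups. Gbp7 fell 2.2-fold with H2O2 (-1.14, SE 0.149, adjusted p = 3.29e-05) and 3.24-fold from H2O2 to pretreated H2O2 (-1.70, SE 0.163, adjusted p = 1.42e-06). With length and GC offsets its fall with H2O2 was smaller, at -0.76. Gbp2, the most abundant of the 3, was at 136 ± 5.32 CPM in control, 134 ± 3.03 in H2O2 and 88.6 ± 0.213 in pretreated H2O2 (-0.60 between the treated groups, SE 0.031, adjusted p = 4.59e-09). Gbp3 went from 50.2 ± 2.43 to 44.8 ± 2.31 and 28.9 ± 2.85 CPM in that order of groups (-0.63 between the treated groups, SE 0.07, adjusted p = 5.1e-06). Gbp2 and Gbp3 were not called between H2O2 and control, although Gbp3 was in 8 of the alternatives. The dynamin-like Mx genes, which encode GTPases against influenza and related viruses, were hardly detected. Mx1 had 0 counts in every control library, 4, 12 and 12 in H2O2, with 0, 0 and 6 in pretreated H2O2 and was not tested, and Mx2 had 32, 8 and 13 counts, 4, 23 and 11, and 22, 0 and 0. The groups of Mx2 overlapped and no difference was called, except that without pretreated replicate 1, which leaves pretreated libraries with 0 counts, Mx2 was called lower there.

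PARP9 with its partner DTX3L, a ubiquitin ligase, and PARP14 are proteins of ADP-ribosylation that interferon induces, and their genes lie on chromosome 16 within 139.7 kb. Parp14 was at 9.83, 10.7 and 8.68 CPM in control, 6.50, 7.10 and 6.35 in H2O2, with 1.69, 1.77 and 2.75 in pretreated H2O2. The 3 groups stepped down without overlap. Parp14 was 3.21-fold lower in pretreated H2O2 than in H2O2 (-1.69, SE 0.177, adjusted p = 3.2e-06) and 4.71-fold lower than in control (-2.24, SE 0.178, adjusted p = 2.37e-07). Its fall with H2O2 (-0.55, SE 0.165, adjusted p = 0.0146) was not called without control replicate 2 (-0.48) or with length and GC offsets (-0.22). Dtx3l went from 14.9 ± 0.827 CPM in control to 12.4 ± 1.06 in H2O2 and 6.82 ± 0.786 in pretreated H2O2 (-0.87 between the treated groups, SE 0.108, adjusted p = 1.48e-05), and Parp9 from 25.7 ± 3.29 to 20.7 ± 0.858 and 14.2 ± 0.807 CPM (-0.55, SE 0.093, adjusted p = 0.000221). The fall of Parp9 with H2O2 (-0.31, adjusted p = 0.0128) was lost without control replicate 1 (-0.21) or H2O2 replicate 2 (-0.28). Parp9 and Dtx3l overlap each other on opposite strands.

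ISG15 is a ubiquitin-like protein that interferon induces and attaches to other proteins, and USP18 removes it. Isg15 was at 44.9, 47.6 and 44.9 CPM in control, 46.4, 49.1 and 47.0 in H2O2, with 32.6, 32.7 and 32.1 in pretreated H2O2. Control and H2O2 overlapped, and pretreated libraries were lower than both. Isg15 fell from H2O2 to pretreated H2O2 (-0.55, SE 0.043, adjusted p = 2.31e-07) and did not differ by the test between H2O2 and control (0.05, adjusted p = 0.349). Trim21, a ligase that also acts as a cytosolic antibody receptor, was at 7.84, 7.22 and 8.17 CPM in control, 8.19, 7.45 and 8.15 in H2O2, with 2.91, 3.33 and 2.43 in pretreated H2O2. Its first groups overlapped and the pretreated one was apart, 2.74-fold below H2O2 (-1.46, SE 0.132, adjusted p = 8.42e-07). Usp18, at 0.18 to 0.946 CPM over the libraries, was called higher in pretreated H2O2 than in control (1.10, SE 0.426, adjusted p = 0.0397). That call was kept in 7 of 15 alternatives and lost without control replicate 1 or 2 (0.78 and 1.00) and without pretreated replicate 1, 2 or 3 (0.90, 1.18 and 1.19). Trim25, the ligase that assists RIG-I, was listed at 0 in control and H2O2 and at 3, 0 and 4 counts in pretreated H2O2 and was not tested.

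Of the remaining induced genes, 3 rose with H2O2 and all 5 were lower in pretreated H2O2 than in H2O2. Among all tested genes 24.6% were called higher in the first comparison and 31.3% lower in the second. Bst2 (chromosome 8, 71534255 to 71537456) encodes tetherin, which holds budding virus at the cell surface. It was at 29.7, 30.1 and 29.2 CPM in control, 40.5, 41.5 and 38.6 in H2O2, with 33.9, 33.1 and 33.9 in pretreated H2O2. Pretreated libraries lay between the other groups, without overlap. Bst2 rose 1.35-fold with H2O2 (0.44, SE 0.047, adjusted p = 5.14e-06; 0.28 with length and GC offsets), fell from there to pretreated H2O2 (-0.26, SE 0.047, adjusted p = 0.000366) and remained above control (0.18, adjusted p = 0.00474), a difference not called with length and GC offsets (0.09). Ifi35, whose protein can be released as a danger signal, was at 33.9 ± 1.85, 41.3 ± 1.24 and 28.5 ± 1.18 CPM in control, H2O2 and pretreated H2O2, and Ifi27, a small mitochondrial protein in human cells, at 45.6 ± 1.35, 52.1 ± 1.82 and 43.1 ± 1.88 CPM. Between the treated groups the log2 fold changes were -0.54 (adjusted p = 2.78e-06) for Ifi35 and -0.28 (adjusted p = 0.000191) for Ifi27. With the offsets the rise of Ifi27 with H2O2 was not called (0.04, main value 0.19), and that of Ifi35 was 0.17 in place of 0.28. Xaf1, which encodes an antagonist of the apoptosis inhibitor XIAP, went from 7.18 ± 1.05 CPM in H2O2 to 3.79 ± 0.286 in pretreated H2O2 (-0.92, SE 0.14, adjusted p = 8.96e-05). Sp100, a component of PML nuclear bodies, went from 10.1 ± 0.324 to 7.65 ± 0.324 CPM (-0.40, SE 0.093, adjusted p = 0.00247).

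**Figure D4:**
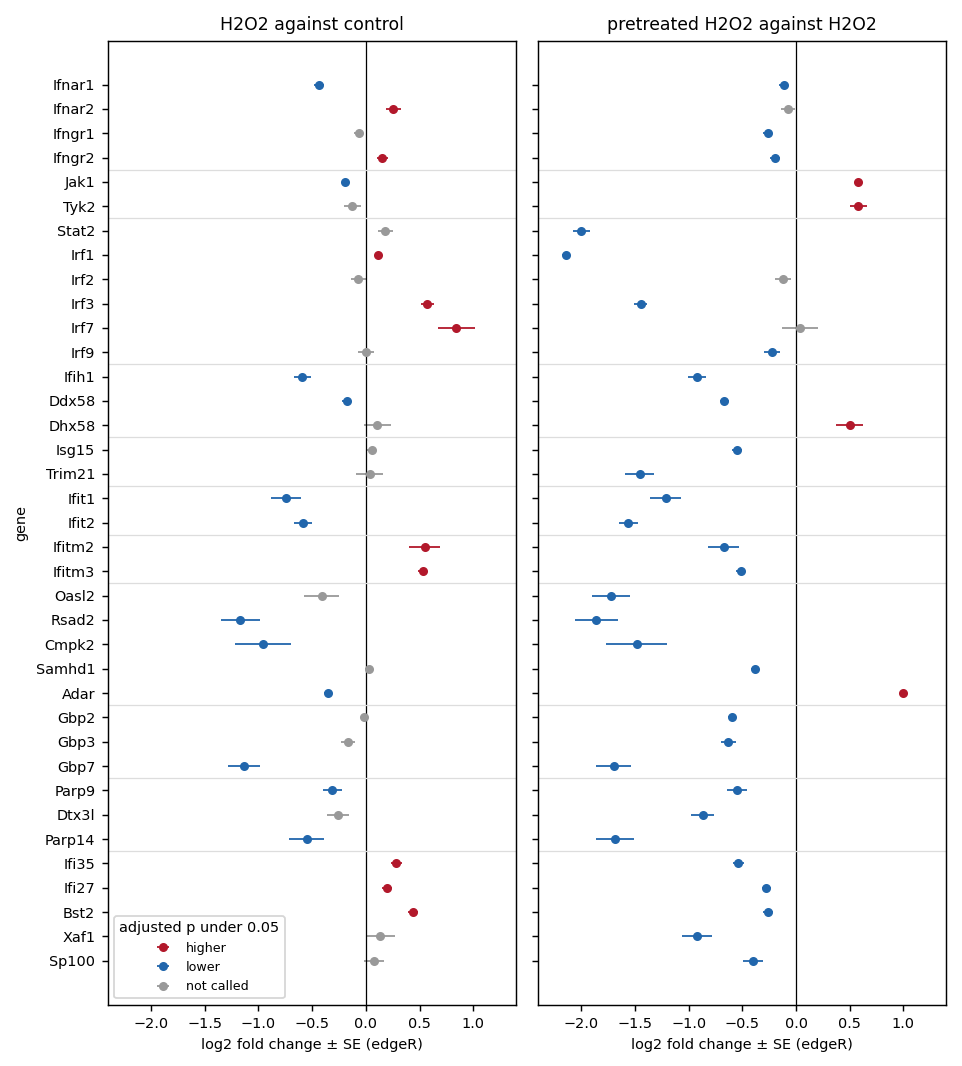
Log2 fold change with its standard error, from edgeR, for the 37 interferon genes averaging 1 CPM or more, in H2O2 against control (left) and pretreated H2O2 against H2O2 (right), coloured by call and grouped by role. On the right 30 genes are lower and Jak1, Tyk2, Dhx58 and Adar are higher; on the left 10 genes are higher, 12 lower and 15 not called.

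A further list of 130 genes of the same pathway, none of them a member, held 118 genes present in the table and 94 tested. Of the 94, 51 (54.3%) were lower and 16 higher in pretreated H2O2 than in H2O2, their median log2 fold change being -0.50, and 25 lower by at least 2-fold (26.6%). H2O2 against control gave 17 higher (18.1%) and 27 lower (28.7%) with a median of -0.10, and pretreated H2O2 against control 16 higher and 58 lower (61.7%) with a median of -0.49. The percentages of all tested genes given for the members apply here too. Of 59 tested induced genes in this list, 37 were lower and 9 higher between the treated groups. The others were 6 signalling genes with 5 lower, 14 sensing genes with 5 lower and 3 higher, 13 negative regulators with 4 lower and 2 higher, and 2 ligand genes, both higher. Of these 2, Ifnab passed the filter on low counts only through the pretreated group, so its call is no independent result.

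Among genes of this list at 1 CPM or more, the largest falls between the treated groups were in GTPases that interferon gamma induces. Tgtp2 was at 28.5, 27.8 and 27.8 CPM in control, 31.4, 30.9 and 28.2 in H2O2, with 3.55, 4.43 and 3.81 in pretreated H2O2. Control and H2O2 overlapped and pretreated libraries were far below, 7.67-fold lower than H2O2 (-2.94, SE 0.089, adjusted p = 3.14e-11). Its near-identical copy Tgtp1 was at 15.7 ± 0.481 CPM in H2O2 and 2.16 ± 0.124 in pretreated H2O2 (-2.86), and the split of reads between the copies is uncertain. Irgm1 went from 84.7 ± 5.88 to 25.8 ± 0.847 CPM (-1.71, adjusted p = 4.42e-11) and Igtp from 9.04 ± 0.312 to 2.60 ± 0.62 CPM (-1.80, adjusted p = 6.85e-07). Mov10, an RNA helicase that restricts viruses and mobile elements, was at 97.8, 101 and 103 CPM in control, 87.5, 91.0 and 93.8 in H2O2, with 27.0, 27.2 and 28.1 in pretreated H2O2. It was lowest in pretreated H2O2, 3.31-fold below H2O2 (-1.73, SE 0.037, adjusted p = 1.65e-12). Rtp4, which encodes an inducible receptor transporter protein, went from 10.3 ± 0.212 to 3.24 ± 0.695 CPM (-1.67, adjusted p = 4.17e-07). Against control, the large falls also took in Gvin1, a very large inducible GTPase, from 6.29 ± 0.201 to 1.61 ± 0.264 CPM (-1.97, adjusted p = 1.26e-07).

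The largest rises at 1 CPM or more were of other kinds. Cgas, which encodes the sensor of cytosolic DNA, was at 32.1, 30.4 and 32.5 CPM in control, 32.0, 30.5 and 30.6 in H2O2, with 78.2, 76.8 and 77.1 in pretreated H2O2. Pretreated libraries were above all others, 2.49-fold above H2O2 (1.32, SE 0.041, adjusted p = 4.05e-11). Isg20, an exonuclease, went from 10.6 ± 1.51 to 21.3 ± 1.24 CPM (1.00, adjusted p = 2.85e-06) and Tor3a, an ATPase of the endoplasmic reticulum, from 28.0 ± 0.592 to 51.5 ± 0.901 CPM (0.88, adjusted p = 3.81e-09). Ptpn11, which encodes the phosphatase SHP2, went from 210 ± 4.09 to 353 ± 5.88 CPM (0.75, adjusted p = 6.99e-11; 0.39 with length and GC offsets). Oasl1, an inhibitor of Irf7 translation, and the chemokine gene Ccl5 rose from levels near 1 CPM, from 0.733 ± 0.0916 to 1.76 ± 0.3 CPM and from 1.39 ± 0.451 to 2.34 ± 0.394 CPM (adjusted p = 0.00176 and 0.0297). The call of Ccl5 was kept in 13 of 18 alternatives, and was lost without H2O2 replicate 3 (0.51) and without pretreated replicate 1 or 3 (0.63 and 0.77).

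With H2O2 alone, the largest rise among genes of this list averaging 1 CPM or more was in Cxcl10, a chemokine that draws T cells, at 1.62, 2.18 and 2.00 CPM in control and 4.21, 4.91 and 4.72 in H2O2. These did not overlap, and the rise was 2.39-fold (1.26, SE 0.157, adjusted p = 2.14e-05); Cxcl10 stayed at 4.23 ± 0.399 CPM in pretreated H2O2. Ifi27l2a, Ifi30, Socs3, Ptpn6 and Tspo followed, with log2 fold changes of 1.16, 0.57, 0.50, 0.49 and 0.44. The call of Ptpn6 was kept in 13 of 18 alternatives, and was lost without control replicate 1 (0.36), without H2O2 replicate 1 or 3 (0.47 and 0.45) and with length and GC offsets (0.35). Socs3, a feedback inhibitor of JAK kinases, was at 23.1 ± 1.23 CPM in control, 32.6 ± 2.25 in H2O2 and 14.7 ± 2.36 in pretreated H2O2. Among genes of this list averaging 1 CPM or more, the largest falls with H2O2 were in Helz2, Traf3, Eif2ak2, Tlr3, Rnf213 and Gbp9, with log2 fold changes of -0.76, -0.66, -0.66, -0.65, -0.63 and -0.62. Eif2ak2, which encodes the RNA-activated kinase PKR, fell from 47.1 ± 2.2 to 29.8 ± 1.88 CPM and to 22.3 ± 2.51 CPM in pretreated H2O2. With length and GC offsets the falls of Rnf213, Gvin1 and Gbp9 with H2O2 were not called (0.07, 0.24 and -0.28), those of Helz2 and Traf3 were -0.21 and -0.19, and the rise of Tspo was 0.28. With them the further fall of Eif2ak2 from H2O2 to pretreated H2O2 was -0.28 (main value -0.42), and Helz2, higher in pretreated H2O2 than in H2O2 (0.49), was at -0.04.

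Jak2, which encodes a kinase of the interferon gamma receptor, was chosen for mention after its values were seen. Jak2 was at 41.0 ± 0.625, 29.9 ± 0.964 and 20.2 ± 1.51 CPM in control, H2O2 and pretreated H2O2 (-0.57 between the treated groups, SE 0.061, adjusted p = 3.87e-06), so that it fell where Jak1 and Tyk2 rose.

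The interferon genes themselves were close to undetected. Of 21 listed ligand genes 13 were in the table and 2 were tested. Ifnb1, for interferon beta, had 0 counts in every control library, 0, 0 and 4 in H2O2, with 2, 3 and 0 in pretreated H2O2, and each of the other interferon alpha genes had at most 4 counts in a library. Ifnab, an interferon alpha B gene, was at 0, 0 and 0 counts in control, 4, 4 and 0 in H2O2, with 83, 65 and 59 in pretreated H2O2, which is 1.27, 1.03 and 0.937 CPM. Ifnz, interferon zeta, was at 25, 11 and 13 counts, 17, 47 and 25, and 79, 61 and 68. Ifnab passed the filter on low counts only through the pretreated group. Both Ifnab and Ifnz were highest in pretreated H2O2, the group in which more genes had a count, and the part of that difference in these values was not tested.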

How the data were processed

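Per the labels' protocols, RNA from TRIzol lysates was selected for poly(A), made into dUTP libraries and read from both ends on an Illumina instrument. The authors deposited estimated counts per gene for 55401 genes, not scaled to library size, and FPKM for the 30411 genes with a count. Not given in the sources used here are the aligner, the counter and whether strand was used. The submitters' processing notes name the human build hg38, but identifiers and coordinates are those of mouse GRCm38: 40 of 44 members had identical coordinates in GENCODE M21.

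Counts are called estimated because 9836 values equalled 4, against 4842 equal to 3 and 3136 equal to 5. For this reason 12 deposited counts over a group were taken as about 3 fragments, no fold is given against a group at or under that floor, and floors cover counting error only. The design had assumed raw counts, and the deposited whole numbers were tested as they are.

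Tests were run with edgeR 4.0.16 in R 4.3.3 (TMM, default low-count filter by group, quasi-likelihood fit on all 9 libraries with 1 mean per group, Benjamini-Hochberg over 18092 genes, adjusted p under 0.05). The code was checked on simulated data in which few genes differed between groups. Far more genes were called here, so that check does not cover the calls above. Alternatives were DESeq2 1.42.0, limma 3.58.1 on log2(FPKM + 1 or + 0.1), other scalings and filters, counts divided by 4, the 6 libraries of a comparison, a replicate block, offsets fitted here to transcript length and GC content, and each library left out. The members and lists were chosen with earlier results of these data known. Full values were given for receptors, kinases, STAT and IRF members at 1 CPM or more and for up to 8 other members per comparison with the largest called change. Of the further pathway genes, up to 6 per direction and comparison were named by the same measure. Other members, among them Adar, Ddx58, Isg15, Ifitm3 and Bst2, were described after their values were seen. A gene of the pathway is not reported here.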

Additional observations from a re-analysis of the deposited data

How the results depend on the processing

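Counts of called members kept within 1.5 times of those reported in every alternative run except limma on log2(FPKM + 1) and on log2(FPKM + 0.1) among genes with a mean FPKM of at least 1, where 5 members in place of 9 were higher in pretreated H2O2 than in control, with fewer genes tested. Leaving out each library in turn gave 9 to 12 members higher and 11 to 13 lower for H2O2 against control, 5 higher and 29 to 31 lower for pretreated H2O2 against H2O2, and 7 to 8 higher and 25 to 27 lower for pretreated H2O2 against control. For the further pathway genes the ranges were 14 to 16 and 21 to 25, 14 to 16 and 45 to 50, and 14 to 16 and 55 to 59. The labels do not say that a replicate number pairs libraries, and same-numbered libraries of different groups correlated between -0.089 and 0.145 in their deviations. With the replicate number as a block, 11 members were higher and 12 lower, 5 and 31, and 8 and 26 in the same order. Sign changes under offsets for transcript length and GC content were followed only in the tested members and the pathway genes named by rule. Changes among values called neither with nor without the offsets are not counted. The offsets turned the sign of 7 values that were called with or without them. In H2O2 against control these were Cgas (0.22, main -0.03), Gvin1 (0.24, main -0.44), Irf1 (-0.034, main 0.12), Mov10 (0.12, main -0.14), Rnf213 (0.069, main -0.63) and Tyk2 (0.22, main -0.13), and in pretreated H2O2 against H2O2 Helz2 (-0.037, main 0.49); the cause was not tested. Members under 1 CPM (Usp18, Ifit3, Ifitm1, Oas1a and Mx2 among those tested) are limited by depth, and a p that misses the threshold there does not show that groups are alike.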
